A study of Mus musculus with 12 samples.

Results

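The 10 genes described here encode the actin filament and its regulators in smooth muscle, together with the myosin that pulls on it. They were chosen by name, with no measured value in the rule, although earlier results of these data were known. They are *Acta2*, *Actg2*, *Myh11*, *Tagln*, *Cnn1*, *Smtn*, *Lmod1*, *Tpm1*, *Tpm2*, and *Cald1*, 10 of the 52636 genes in the deposited count table. All 10 were present and all 10 passed the filter on low counts that left 22320 genes for testing. Bulk RNA-seq had been done on smooth muscle cells (SMCs) sorted by GFP from male C57BL/6J mice at 12 weeks of age. Going by the library titles, 3 GFPiSMC and 3 Tgfbr1/2iSMCKO mice each gave 1 library from the ascending aorta and arch and 1 from the descending thoracic aorta. Both genotypes carried the tamoxifen-inducible Myh11-CreERT2 transgene and the mT/mG reporter, which switches from tdTomato to GFP where Cre has acted, and both received tamoxifen for 5 days. Tgfbr1/2iSMCKO mice also carried floxed alleles of *Tgfbr1* and *Tgfbr2*, the type I and type II TGF-β receptors, and GFPiSMC mice did not. Tamoxifen was given at 2 mg/d from 11 weeks of age in the study's schedule for mature mice, which its account of these cells points to. The labels also name 1 mg/d at 4 weeks of age and assign neither schedule to an animal. Because the sort and the recombination both depend on the *Myh11* promoter, which drives one of the 10 genes, the cells were selected for having had that promoter active.

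Force in vascular SMCs comes from smooth muscle myosin sliding along filaments of smooth muscle α-actin. Tropomyosins lie along the actin filament, and caldesmon, calponin, and transgelin bind to it, while leiomodin starts new filaments. Transcription of these genes is classically driven by serum response factor (SRF) with its cofactor myocardin at CArG boxes, and TGF-β is a textbook inducer of the same program, through Smad proteins that read CAGAC elements and alongside TEAD factors at M-CAT elements.

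The libraries held 20467027 to 31392396 counts, of which the 10 genes took 4.10% to 4.98%. Their share was 4.68% ± 0.228 in GFPiSMC and 4.55% ± 0.303 in Tgfbr1/2iSMCKO libraries (mean ± SD, n = 6 libraries from 3 animals each). At that depth each of the 10 genes had at least 6086 counts in every library, so counting error was small beside the spread between animals. Gene-level counts do not separate recombined from intact receptor transcripts: *Tgfbr1* had a log2 fold change of 0.10 (SE 0.12) and *Tgfbr2* of −0.26 (SE 0.11) between genotypes, with adjusted p = 0.790 and 0.234 by edgeR's quasi-likelihood test. Within each segment every Tgfbr1/2iSMCKO library was below every GFPiSMC library for *Tgfbr2*. For *Tgfbr1* every Tgfbr1/2iSMCKO library was above in descending SMCs, and the ascending/arch groups overlapped. Over all genes, 19.0% did not overlap in ascending/arch and 14.9% in descending SMCs. Summed levels of endothelial markers were 63.7 to 113 CPM (counts scaled to the size of the library), of fibroblast markers 29.6 to 255 CPM, of macrophage and leukocyte markers 6.10 to 20.8 CPM, and of Schwann and neuronal markers 3.26 to 7.37 CPM over all 12 libraries, against 40066 to 54821 CPM for the 10 contractile genes. Red cell markers summed to 0.0767 to 101 CPM, with the highest value in 1 descending GFPiSMC library.

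*Acta2*, smooth muscle α-actin, stood far above the rest. The order of the 10 genes was read as CPM per kb of exon, since long transcripts give more counts. On that scale *Acta2* was at 13909 ± 981 in ascending/arch and 14067 ± 213 in descending GFPiSMC SMCs, while the Tgfbr1/2iSMCKO groups had 11865 ± 2288 and 11957 ± 2022 (each a mean ± SD of n = 3 animals). *Tagln*, transgelin or SM22α, came second with 2548 ± 102, 2887 ± 347, 2169.9 ± 382, and 2167 ± 105 CPM per kb in the same order of groups. *Cnn1*, calponin 1, came next in every group, at 1036 to 1462 CPM per kb. The first 3 genes did not overlap with the next gene in any group, with the exception of *Cnn1* and *Tpm2* in descending Tgfbr1/2iSMCKO SMCs. *Actg2*, the γ isoform of smooth muscle actin, *Tpm2*, β-tropomyosin, and *Myh11*, the smooth muscle myosin heavy chain, followed at 308 to 680 CPM per kb, and their order changed between groups. *Actg2* and *Tpm2* overlapped in 3 of the 4 groups. *Cald1*, *Tpm1*, *Lmod1*, and *Smtn* held the last 4 places at 79.9 to 224 CPM per kb, and the ranges of *Lmod1* and *Smtn* overlapped in all 4 groups. Without correction for length, *Acta2* alone gave 61.3% of the counts of the 10 genes on average, from 51.3% to 67.7% per library.

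**Figure D1:**
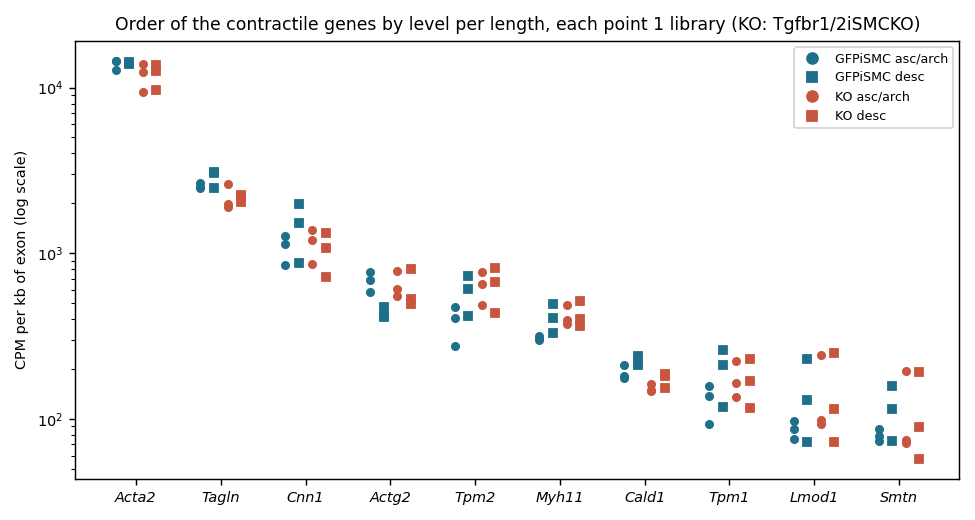
Level of each contractile gene in CPM per kb of exon on a log axis, with 1 point per library, circles for ascending/arch and squares for descending SMCs, blue for GFPiSMC and red for Tgfbr1/2iSMCKO. *Acta2* sits apart from *Tagln*, and the last 4 genes overlap.

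The genes lie on 7 chromosomes in GRCm38. *Acta2* spans chr19:34241090-34255590 and *Myh11* chr16:14194535-14291372, both on the minus strand, and *Cald1* spans chr6:34598500-34775473 on the plus strand. *Tpm2* at chr4:43514711-43523765 is 3.83 Mb from the floxed *Tgfbr1* gene, and *Tpm1*, *Tagln*, and *Cnn1* are 49.03, 70.15, and 93.97 Mb from *Tgfbr2* on chromosome 9. Counting was most ambiguous at 2 of the 10. *Tagln* at chr9:45929619-45936058 shares 1349 exon bases with the antisense gene *Gm48529* and with *Pcsk7*, and 58.3% of its 50-base transcript windows also occur in another gene's transcripts. *Smtn* at chr11:3517523-3540612 shares 9.46% of such windows with *Gm11946*. The library kit does not mark strand, so reads from *Tagln* and *Gm48529* cannot be told apart. *Myh11* shares 0.340% of its windows with *Myh9* and *Myh10*, and *Acta2* 0.326% with pseudogenes or other predicted genes. *Acta2* and *Actg2*, although near-identical proteins, share no 50-base window with each other.

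RefSeq promoter windows of the GRCm38.p6 build, 250 bases before to 50 after a RefSeq start site, were at hand for 7 of the 10 genes, all but *Actg2*, *Myh11*, and *Tagln*. They are shown because SRF, Smad, and TEAD elements are the known routes to these genes. A CArG box in its strict form, CC and GG around 6 bases that are each A or T, was in the windows of 0 of the 7 genes and of 1.81% of 27025 genes with such windows, on either strand. With 1 G or C allowed inside, *Acta2* held 2 and the other genes none, against 9.69% of all genes. The motif's first base is given relative to the RefSeq start site of the window, which can lie inside the span that GENCODE gives the gene, and capitals mark the motif. The boxes start at -84 and -34 and lie in chr19:34255436-34255469 and chr19:34255386-34255419 on the minus strand.
Acta2 box at -84: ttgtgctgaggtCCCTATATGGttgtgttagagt
Acta2 box at -34: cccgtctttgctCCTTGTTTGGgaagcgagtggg

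The letters CATTCC, the core of the M-CAT element, were found on either strand in 5 of the 7 genes, against 16.6% of all genes. Capitals again mark the motif, which reads GGAATG where it is on the other strand. The windows are chr19:34255502-34255531 for *Acta2*, chr11:3539497-3539526 for *Smtn*, and chr9:67049252-67049281 for *Tpm1* on the minus strand, and chr1:135324671-135324700 for *Lmod1* and chr6:34598339-34598368 for *Cald1* on the plus strand.
Acta2 at -146: gagcagaacagaGGAATGcagtggaagaga
Smtn at -222: cggtttgtggcaCATTCCggactttggctt
Tpm1 at -56: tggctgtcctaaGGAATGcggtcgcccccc
Lmod1 at -130: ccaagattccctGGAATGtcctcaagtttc
Cald1 at -153: gagcatgcctagGGAATGacaggcatctgc
CAGAC was found in 4 of the 7 genes, *Acta2*, *Cald1*, *Cnn1*, and *Smtn*, against 53.2% of all genes. A match of letters is a description of the window and says nothing of binding.

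The first comparison asked whether loss of both receptors changed the contractile genes over both segments. Of the 10 genes, *Cald1* fell and the other 9 did not pass an adjusted p of 0.05, where 5.03% of the 22320 genes tested did. None of the 10 was also past a 2-fold change, as 2.67% of all genes were. The log2 fold changes of the 10 ran from −0.34 to 0.43 with a median of 0.16, beside a median of 0.04 over all genes. None of the 10 had all 6 Tgfbr1/2iSMCKO libraries on one side of all 6 GFPiSMC libraries, as 4.39% of all genes had. In bulk samples, fewer expressing cells and less RNA per cell cannot be told apart.

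**Figure D2:**
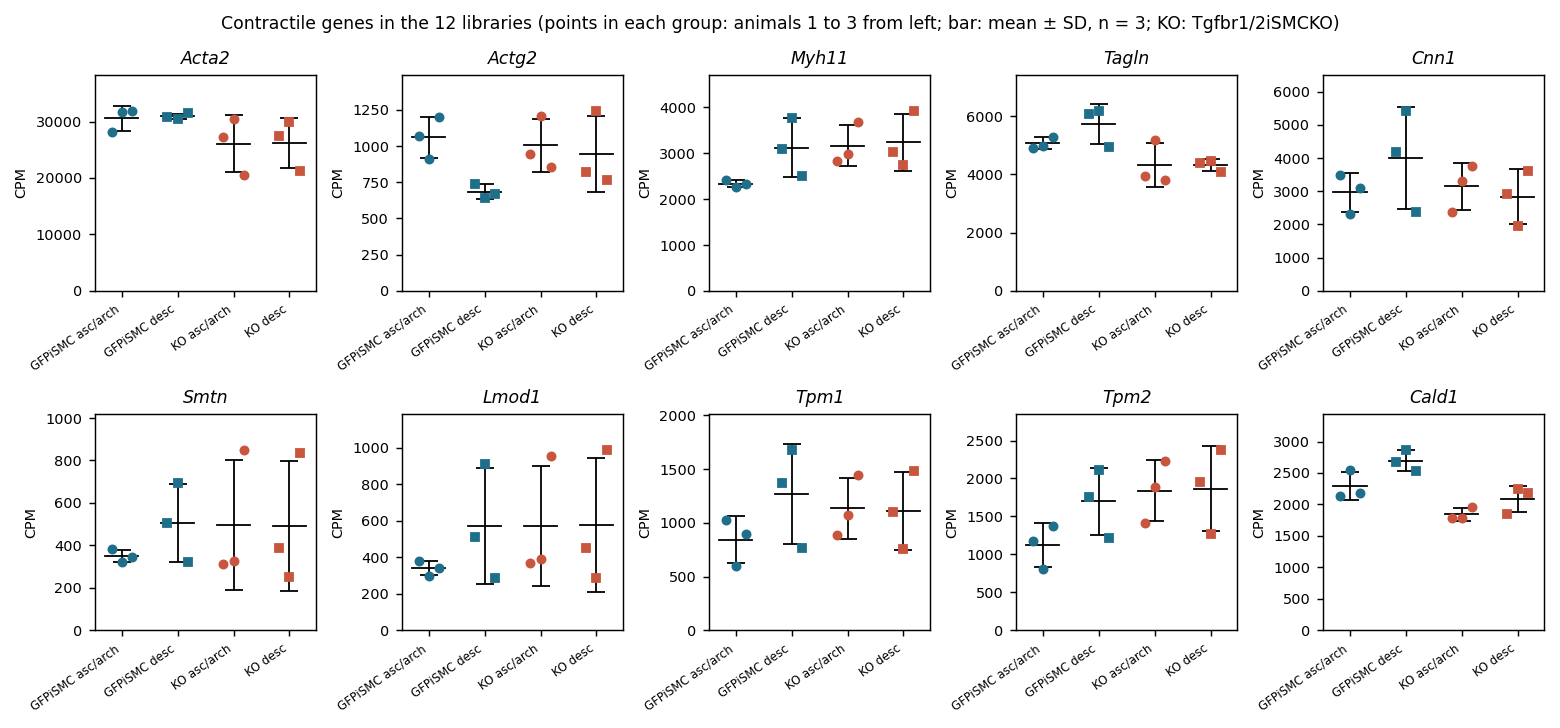
Level of the 10 contractile genes in CPM on linear axes from 0, with 1 point per library in the order of animals 1 to 3, and the mean ± SD of 3 animals per group. *Cald1* is lower in Tgfbr1/2iSMCKO SMCs of both segments, and *Smtn* and *Lmod1* are high in both libraries of the third Tgfbr1/2iSMCKO animal.

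*Cald1* encodes caldesmon, which binds actin and tropomyosin and restrains the myosin ATPase. It was at 2136, 2554, and 2184 CPM in ascending/arch and 2674, 2867, and 2536 CPM in descending GFPiSMC SMCs. In Tgfbr1/2iSMCKO SMCs it was at 1791, 1779, and 1952 CPM and at 1854, 2242, and 2178 CPM. Within each segment every Tgfbr1/2iSMCKO library was below every GFPiSMC library. Over all genes, 19.0% did not overlap in ascending/arch and 14.9% in descending SMCs. The log2 fold change was −0.34 (SE 0.08, 95% confidence interval −0.51 to −0.17, edgeR adjusted p = 0.0228). The call was lost with counts summed per animal, where the log2 fold change was −0.32 and the adjusted p 0.287, and also with library size only (adjusted p = 0.156) and without Tgfbr1/2iSMCKO animal 1 (0.140), GFPiSMC animal 1 (0.0851), animal 2 (0.138), animal 3 (0.0586), or the descending library of GFPiSMC animal 2 alone (0.0738).

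*Tagln*, an actin-bundling protein of smooth muscle, came closest to the threshold among the rest. It was at 4915, 4985, and 5296 CPM in ascending/arch and 6085, 6187, and 4946 CPM in descending GFPiSMC SMCs, and at 3955, 5185, and 3801 CPM and 4377, 4475, and 4074 CPM in Tgfbr1/2iSMCKO SMCs. The descending groups did not overlap, where 14.9% of all genes did not, and the ascending/arch groups did. The genotypes differed by −0.32 on the log2 scale (SE 0.09, adjusted p = 0.0699). With the reads of *Gm48529* added this became −0.33 (adjusted p = 0.0597). It passed with the animal as a random effect in limma-voom (adjusted p = 0.0497) and without Tgfbr1/2iSMCKO animal 2 (adjusted p = 0.0127).

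The actins moved by less than the threshold required. *Acta2* was at 28062, 31640.2, and 31929.9 CPM in ascending/arch and 30724, 30531, and 31421 CPM in descending GFPiSMC SMCs. In Tgfbr1/2iSMCKO SMCs it was at 27245, 30380.2, and 20543 CPM and at 27519, 29931, and 21323 CPM, with the third animal lowest in both segments. The log2 fold change was −0.23 (SE 0.10, interval −0.45 to −0.02, adjusted p = 0.264), and −0.11 without that animal. *Actg2* had a log2 fold change of 0.19 (SE 0.15, interval −0.13 to 0.52, adjusted p = 0.640).

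The motor and the remaining filament proteins did not pass. *Myh11* was at 2418, 2275, and 2330.3 CPM in ascending/arch and 3095, 3774, and 2498 CPM in descending GFPiSMC SMCs, and at 2836, 2984, and 3684 CPM and 3035, 2746, and 3931 CPM in Tgfbr1/2iSMCKO SMCs. The ascending/arch groups did not overlap, with the Tgfbr1/2iSMCKO libraries higher, where 19.0% of all genes did not overlap. Over both segments the log2 fold change of *Myh11* was 0.24 (SE 0.13, interval −0.03 to 0.52, adjusted p = 0.394). *Tpm2* had 0.43 (SE 0.20, interval −0.01 to 0.87, adjusted p = 0.330) and *Tpm1*, α-tropomyosin, 0.12 (SE 0.23, interval −0.38 to 0.62, adjusted p = 0.897). *Cnn1*, which like caldesmon damps actin-activated myosin ATPase, had −0.21 (SE 0.22, interval −0.68 to 0.26, adjusted p = 0.759). For *Myh11*, *Tpm2*, *Tpm1*, and *Cnn1* the intervals leave room for a change of either sign.

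*Smtn*, smoothelin of contractile SMCs, and *Lmod1*, leiomodin 1, were the most variable of the 10. *Smtn* was at 382, 321, and 346 CPM in ascending/arch and 503, 693, and 321 CPM in descending GFPiSMC SMCs, and at 314, 327, and 849.9 CPM and 389, 251, and 835 CPM in Tgfbr1/2iSMCKO SMCs. *Lmod1* was at 380.2, 299, and 342 CPM and at 510.3, 912, and 287 CPM in GFPiSMC SMCs, and at 369, 391, and 952 CPM and 451, 285, and 987 CPM in Tgfbr1/2iSMCKO SMCs. The third Tgfbr1/2iSMCKO animal had the 2 highest values of both genes, and the descending library of GFPiSMC animal 2 the next. The log2 fold change was 0.23 (SE 0.32, adjusted p = 0.833) for *Smtn* and 0.38 (SE 0.35, adjusted p = 0.719) for *Lmod1*. With the reads of *Gm11946* added, *Smtn* was at 0.27 (adjusted p = 0.809). Without that Tgfbr1/2iSMCKO animal both turned negative, to −0.40 and −0.24, with *Tpm1* at −0.12.

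Those 3 libraries also stood apart in the share of counts on mitochondrial genes, which was 2.39% and 2.49% in the third Tgfbr1/2iSMCKO animal, 2.99% in the descending library of GFPiSMC animal 2, and 3.47% to 4.98% in the rest. The share did not separate the genotypes, at 3.79% ± 0.626 in GFPiSMC and 3.69% ± 1.03 in Tgfbr1/2iSMCKO libraries (n = 6). After removal of the 4 group means, 6 of the 10 genes were higher where the mitochondrial share was lower: Pearson's r with the share over the 12 libraries was −0.99 for *Smtn*, −0.98 for *Lmod1*, −0.95 for *Myh11*, −0.91 for *Tpm1*, −0.86 for *Cnn1*, and −0.84 for *Tpm2*. *Acta2* went the other way, with r of 0.86. *Actg2* had 0.59, *Tagln* 0.16, and *Cald1* −0.22. These r are descriptions over libraries that share animals, sort, and depth.

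The split of the contractile genes within groups was sizeable. Per percentage point of mitochondrial share, the fitted log2 level changed by −0.78 (SE 0.06) for *Lmod1*, −0.70 (SE 0.05) for *Smtn*, −0.24 (SE 0.04) for *Myh11*, and 0.18 (SE 0.03) for *Acta2*, and by −0.03 (SE 0.04) for *Cald1*. The 6 genes correlated with each other at a median r of 0.90 (range 0.80 to 0.99 over 15 pairs), and *Acta2* correlated with them at −0.53 to −0.88. Such values were common: of 9195 nuclear genes with a mean log2 CPM above 3, 23.6% had r below −0.8 and 11.6% above 0.8 with the share, and the first component of the within-group deviations of those genes, 47.8% of their variance, had r of −0.99 with it. The component also had r of −0.93 with the number of sorted cells and 0.65 with the total count, both on a log2 scale. The part of these quantities in the levels of the contractile genes was not tested.

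**Figure D3:**
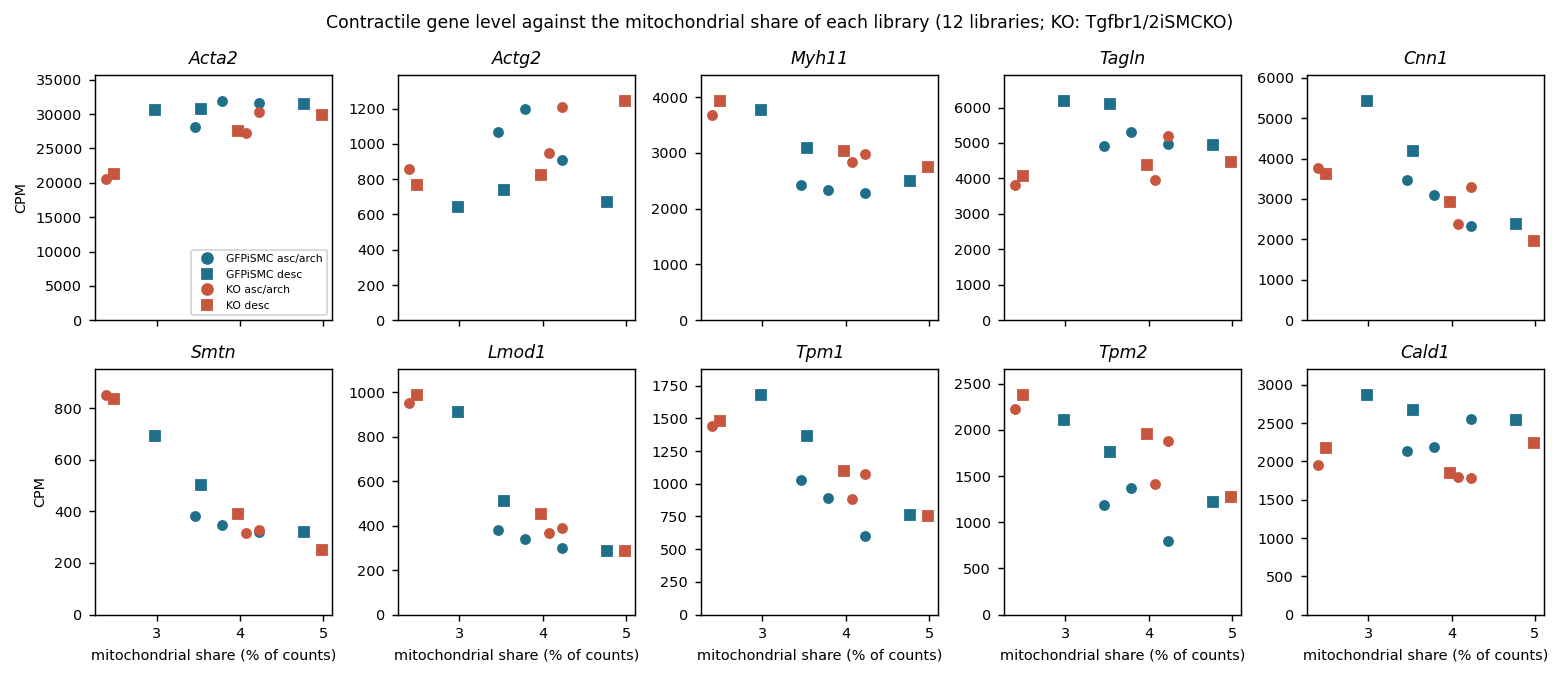
Level of each gene in CPM, on linear axes from 0, against the mitochondrial share of the library in percent of counts, with symbols as in the plot of level order. *Smtn* and *Lmod1* are highest in the libraries with the lowest share, while *Acta2* is lowest in 2 of those libraries and *Cald1* shows no such slope.

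With the mitochondrial share added to the fit, a choice made after seeing the data, the log2 fold changes of *Acta2*, *Tagln*, and *Cald1* stayed at −0.23 (SE 0.05), −0.32 (SE 0.08), and −0.34 (SE 0.06), and their adjusted p became 0.0130, 0.0261, and 0.00337. *Myh11* was at 0.22 (SE 0.06, adjusted p = 0.0415). In that fit 4 of the 10 genes passed, 3 lower and 1 higher in Tgfbr1/2iSMCKO SMCs, where 10.3% of all genes did. *Smtn* dropped to 0.02 (SE 0.08), with an interval of −0.15 to 0.19 in place of −0.46 to 0.92. *Tpm2* was at 0.39 (SE 0.13, adjusted p = 0.0788). With counts summed per animal and the same term, *Acta2*, *Tagln*, *Tpm2*, and *Cald1* passed (adjusted p = 0.0144, 0.0343, 0.00881, and 0.0466), and *Myh11* did not (0.105). Over all genes 1460 of 24275 passed in that fit. With those 3 libraries left out instead, only *Cald1* passed (log2 fold change −0.36, adjusted p = 0.0427), where 905 of 22937 genes did. *Acta2* and *Tagln* were then at −0.10 and −0.23 (adjusted p = 0.489 and 0.254).

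**Figure D4:**
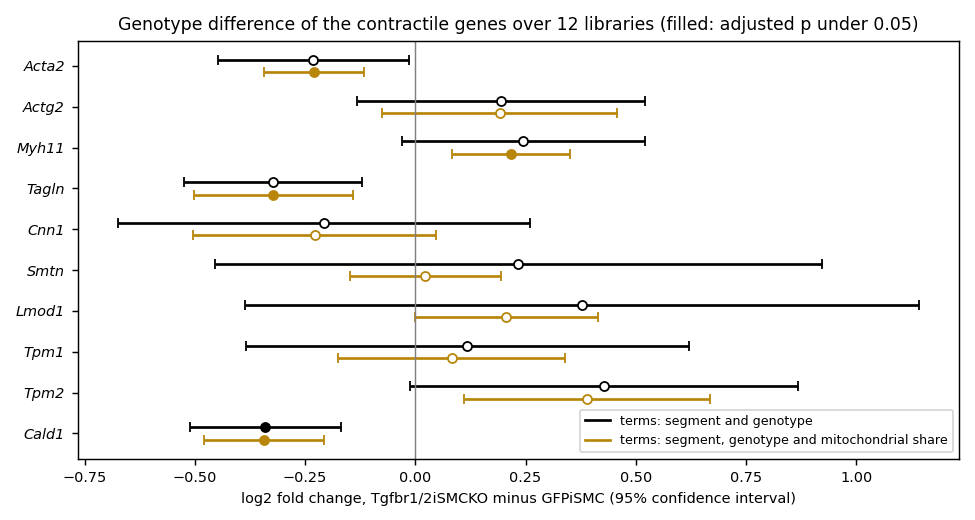
Log2 fold change of each contractile gene between genotypes with its 95% confidence interval, without the mitochondrial share (black) and with it as a term (gold), filled where the adjusted p is under 0.05. *Cald1* is filled in both fits, and *Acta2*, *Myh11*, and *Tagln* only with the term.

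Within single segments 0 of the 10 genes passed by edgeR, where 1.41% of all genes passed in ascending/arch (1.15% also past 2-fold) and 1.72% in descending SMCs (1.42% also past 2-fold). DESeq2 also gave 0 in both, where it called 909 and 907 of the 22320 genes. The unadjusted p by edgeR was under 0.05 for 3 of the 10 in each, beside 2545 of the 22320 genes in ascending/arch and 2399 in descending SMCs. In ascending/arch SMCs these were *Myh11* (log2 fold change 0.44, SE 0.17), *Tpm2* (0.72, SE 0.28), and *Cald1* (−0.32, SE 0.12), with adjusted p of 0.342, 0.328, and 0.305. They were also the 3 genes whose groups did not overlap, where 19.0% of all genes did not. In descending SMCs they were *Actg2* (0.47, SE 0.19), *Tagln* (−0.41, SE 0.13), and *Cald1* (−0.36, SE 0.12), with adjusted p of 0.393, 0.206, and 0.204. There the groups of these 3 and of *Acta2* (−0.23, SE 0.15) did not overlap, where 14.9% of all genes did not. With the mitochondrial share as a term, *Myh11* and *Tpm2* passed in ascending/arch (adjusted p = 0.00707 and 0.0479, background 4.72%) and *Cald1* in descending SMCs (0.0463, background 4.78%).

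Whether the genotype difference itself changed between segments was tested as an interaction. None of the 10 genes passed by edgeR or by DESeq2, and none had an unadjusted p under 0.05. Over all genes edgeR called 0 and DESeq2 8, and 659 had an unadjusted p under 0.05 by edgeR. With the mitochondrial share as a term 0 of the 10 passed, where 0.00448% of all genes did. *Actg2* had the smallest unadjusted p, 0.0722, with a difference of 0.54 on the log2 scale (interval −0.06 to 1.14), and *Acta2* had a difference of −0.01 (interval −0.46 to 0.45).

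The second question was how the segments differ when the receptors are intact. *Actg2* was at 1069, 911, and 1197 CPM in ascending/arch and 741, 644, and 668 CPM in descending GFPiSMC SMCs, with no overlap, and its log2 fold change was −0.63 (SE 0.19, unadjusted p = 0.00706, adjusted p = 0.452). *Myh11* also did not overlap and was higher in descending SMCs, at 0.42 (SE 0.17, adjusted p = 0.762). With the animal as a block the adjusted p of *Actg2* was 0.0827. Of the 10 genes 0 passed by edgeR, where 0.376% of all genes passed (0.372% also past 2-fold), and 0 by DESeq2, which called 286 of the 22320 genes. An unadjusted p under 0.05 was seen in 3 (beside 1334 of the 22320 genes), and 2 did not overlap, where 13.0% of all genes did not. *Acta2* was level between the segments, with a log2 fold change of 0.02 (interval −0.31 to 0.34).

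The other 7 genes were higher in descending GFPiSMC SMCs by 0.18 to 0.74 on the log2 scale without passing. In GFPiSMC animal 3, 6 of these 7 were lower in the descending library, all but *Cald1*. *Lmod1* was at 0.74 (SE 0.50), *Tpm2* at 0.60 (SE 0.28), *Tpm1* at 0.59 (SE 0.32), *Smtn* at 0.53 (SE 0.46), *Cnn1* at 0.43 (SE 0.30), *Cald1* at 0.23 (SE 0.12), and *Tagln* at 0.18 (SE 0.13). Without the descending library of GFPiSMC animal 2, which had the low mitochondrial share, *Lmod1*, *Cnn1*, and *Smtn* were at 0.22, 0.15, and 0.23. With the mitochondrial share as a term, *Myh11* (0.38, adjusted p = 0.0162) and *Lmod1* (0.55, adjusted p = 0.0437) passed, where 1.16% of all genes did. Fibroblast markers moved with the segment, at a summed 186 to 216 CPM in ascending/arch and 56.5 to 72.4 CPM in descending GFPiSMC libraries (117 to 255 and 29.6 to 57.9 CPM in Tgfbr1/2iSMCKO libraries), and their part in the result was not tested.

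In Tgfbr1/2iSMCKO SMCs the fitted differences between segments were small in these genes, but the spread between animals was wide for some. In ascending/arch *Smtn* was at 497 ± 306 CPM and *Lmod1* at 570 ± 331 CPM (mean ± SD, n = 3 animals), so a difference in such genes could be missed. The interaction given above passed for none of the 10 genes. The log2 fold changes ran from −0.15 to 0.18 with a median of 0.00, and 0 of 10 passed by edgeR, 0 by DESeq2, and 0 at an unadjusted p under 0.05. Over all genes 0.112% passed by edgeR (0.108% also past 2-fold), DESeq2 called 165 of the 22320, and 821 had an unadjusted p under 0.05. *Actg2* was at 947, 1208, and 858 CPM in ascending/arch and 824, 1244, and 766 CPM in descending Tgfbr1/2iSMCKO SMCs, so that its groups overlapped. All 10 genes overlapped between the segments, where 7.24% of all genes did not.

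The paralogs of the 10 genes, expressed in many other cells or in striated muscle, were read in the same fit. Of 21 listed, 20 were tested, 4 fell and 1 rose, where 5.03% of all genes passed. *Tagln2*, the transgelin of non-muscle cells, was at 499 to 747 CPM in GFPiSMC and 206 to 325 CPM in Tgfbr1/2iSMCKO libraries (log2 fold change −1.22, SE 0.11, adjusted p = 1.31e-05). *Myh10*, non-muscle myosin IIB, was at 385 to 519 CPM against 158 to 240.0 CPM (−1.16, SE 0.14, adjusted p = 0.000183). *Tpm4*, a cytoskeletal tropomyosin, had −0.68 (SE 0.09, adjusted p = 0.000708), and *Myh9*, non-muscle myosin IIA, −0.63 (SE 0.11, adjusted p = 0.00411). In *Tagln2*, *Myh10*, and *Myh9* the 6 libraries of each genotype did not overlap, where 4.39% of all genes did not.

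*Actc1*, cardiac α-actin, was the paralog that rose. It was at 2.68, 1.24, and 2.85 CPM in ascending/arch and 0.269, 0.982, and 0.482 CPM in descending GFPiSMC SMCs, and at 27.5, 69.9, and 9.09 CPM and 8.78, 28.0, and 2.06 CPM in Tgfbr1/2iSMCKO SMCs. The genotypes did not overlap within either segment, where 19.0% of all genes did not in ascending/arch and 14.9% in descending SMCs. The log2 fold change was 4.20 (SE 0.66, adjusted p = 0.00161). *Actb*, cytoplasmic β-actin and the most abundant paralog, had a log2 fold change of −0.02 (SE 0.13), *Cnn3* −0.30 (SE 0.17), and *Cnn2* −0.07 (SE 0.13), and these did not pass. *Tagln2*, *Myh10*, *Tpm4*, and *Actc1* passed in all 19 alternative fits, and *Myh9* in 18, missing with counts summed per animal.

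**Figure D5:**
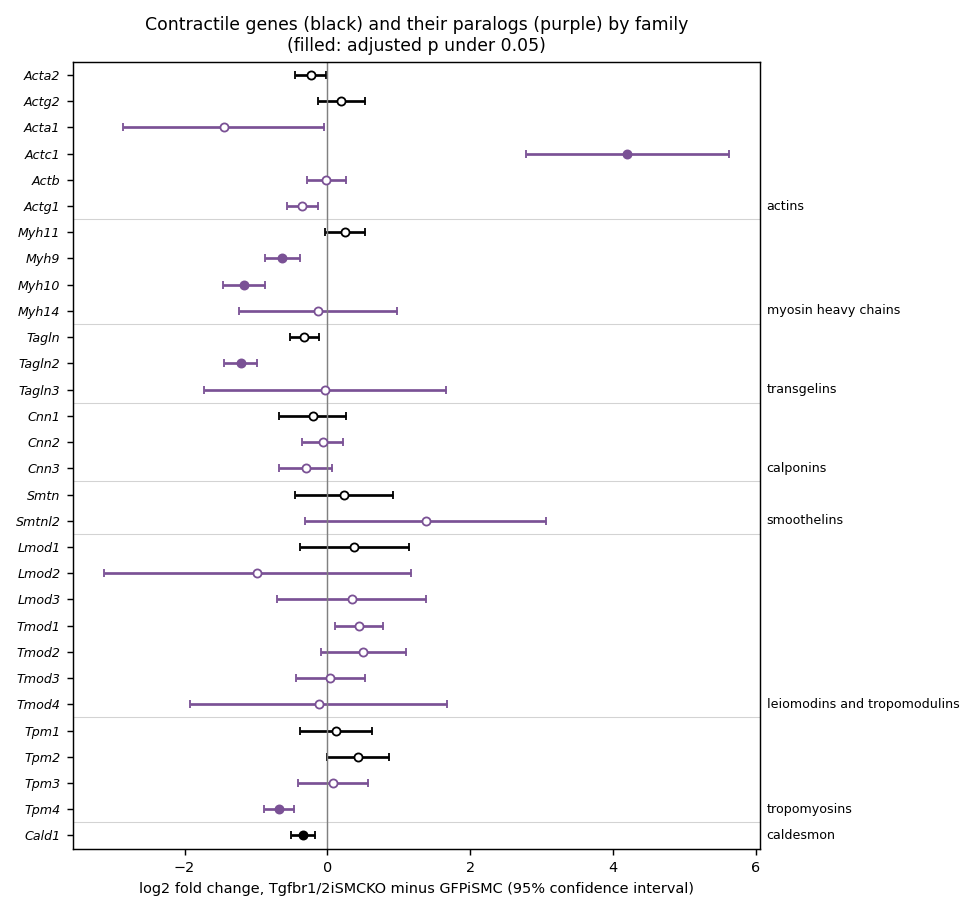
Log2 fold change between genotypes with 95% confidence intervals for the contractile genes (black) and their tested paralogs (purple), grouped by protein family and filled where the adjusted p is under 0.05. *Tagln2*, *Myh10*, *Myh9*, and *Tpm4* are filled below 0 and *Actc1* above 0, while *Cald1* is the one filled contractile gene.

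Myosin light chains and the enzymes that set their phosphorylation were read beside the heavy chain. Of 14 genes, 4 fell and 1 rose, where 5.03% of all genes passed. *Mylk4*, a myosin light chain kinase family member, was at 342 to 499 CPM in GFPiSMC and 24.6 to 48.3 CPM in Tgfbr1/2iSMCKO libraries (log2 fold change −3.43, SE 0.14, adjusted p = 1.03e-08). *Myl12a*, a regulatory light chain of non-muscle myosin, fell by 0.93 on the log2 scale (adjusted p = 0.00117). *Mylk*, the main kinase of the smooth muscle light chain, rose by 0.42 (adjusted p = 0.00682), and was at adjusted p = 0.144 with counts summed per animal, 0.0558 without GFPiSMC animal 1, and 0.0614 without GFPiSMC animal 3. The 3 most abundant genes of the list, *Myl9* (0.30, SE 0.17), *Myl6* (−0.04, SE 0.09), and *Ppp1cb* (0.52, SE 0.15), did not pass by edgeR with segment and genotype as terms. DESeq2 called *Ppp1cb* higher. So did edgeR with library size only, with no filter on low counts, and with the mitochondrial share as a term. *Ppp1cb* also passed without Tgfbr1/2iSMCKO animal 3 and with 3 libraries left out, but not with counts summed per animal alone.

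Of 22 genes that anchor or cross-link the filaments, 4 fell and 0 rose by edgeR, where 5.03% of all genes passed. At an unadjusted p under 0.05 there were 8, beside 3596 of the 22320 genes. DESeq2 called 5 lower and 2 higher, where it called 2034 of the 22320 genes. *Csrp2*, a LIM protein of smooth muscle, was at 1086 to 1457 CPM in GFPiSMC and 195 to 334 CPM in Tgfbr1/2iSMCKO libraries (log2 fold change −2.21, SE 0.12, adjusted p = 1.4e-07). *Pdlim5*, which ties α-actinin to kinases, had −0.99, *Nexn*, an actin-binding protein, −0.56, and *Vcl*, vinculin, −0.46 (adjusted p = 7.63e-06, 0.00317, and 0.0164). With counts summed per animal *Nexn* was at adjusted p = 0.0652 and *Vcl* at 0.167, while *Csrp2* and *Pdlim5* passed, and *Vcl* passed in 13 of the 19 alternative fits. *Lpp* (−0.09, SE 0.07), *Vim* (−0.39, SE 0.12), and *Flna* (−0.35, SE 0.29), the most abundant of this list, did not pass. In *Vim* all 6 Tgfbr1/2iSMCKO libraries were below all 6 GFPiSMC libraries, where 4.39% of all genes did not overlap. *Vim* was called lower without Tgfbr1/2iSMCKO animal 2, with the replicate number as a block, and with the mitochondrial share as a term. Limma-voom with a random term per animal also called it lower. DESeq2 and the fit with counts summed per animal alone did not. Of 15 tested regulators of the contractile genes, 0 passed by edgeR and 2 had an unadjusted p under 0.05. DESeq2 called 2, *Smad3* higher and *Klf4* lower, where it called 2034 of the 22320 genes. Both also passed by edgeR with the mitochondrial share as a term, and 0 of the 15 passed with counts summed per animal. *Srf* was at −0.18 (SE 0.12) and *Myocd*, myocardin, at 0.26 (SE 0.23), and the most abundant of that list beside it, *Mef2c* and *Gata6*, at 0.40 (SE 0.46) and −0.15 (SE 0.14).

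Of 13 tested troponin and other striated muscle genes, *Actn2*, the α-actinin of striated muscle, fell (log2 fold change −2.10, SE 0.30, adjusted p = 0.000769), and its level was 4.81 to 15.9 CPM in GFPiSMC and 1.61 to 2.61 CPM in Tgfbr1/2iSMCKO libraries. The list summed to 55.0 to 151 CPM, with *Myl7* at 0 in all 12 libraries, and its 3 most abundant genes, *Tnnt2*, *Ckm*, and *Ttn*, did not pass. Among markers of other cells, *Cdh5* (2.97, at most 2.71 CPM in any library) rose and *Erg* (−1.13) fell among 8 endothelial markers, *Col14a1* (−0.82) fell among 7 tested fibroblast markers, and *Pparg* (1.94) rose among 3 tested adipocyte markers, where 5.03% of all genes passed. *Cdh5*, *Erg*, and *Col14a1* passed in 13, 16, and 9 of the 19 alternative fits and *Pparg* in all 19, and with counts summed per animal *Erg* and *Col14a1* were at adjusted p = 0.0847 and 0.185. The adipocyte list summed to 2.64 to 10.4 CPM in GFPiSMC and 14.5 to 27.8 CPM in Tgfbr1/2iSMCKO libraries, with *Adipoq* averaging 0.436 CPM. Of the tested macrophage and leukocyte, Schwann and neuronal, and red cell markers 0 passed by edgeR. In the same order 2, 1, and 0 had an unadjusted p under 0.05, beside 3596 of the 22320 genes. DESeq2 called 0, 1, and 0, where it called 2034 of the 22320 genes.

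The genes that followed *Acta2* most closely within groups were not contractile genes. Over the 12 libraries and 8871 genes with a mean of at least 10 CPM, *Eif3m*, *Gpc6*, *St7*, *Msrb1*, and *Borcs7* had the highest r with *Acta2*, at 0.98 to 0.99. The mean over the 10 genes was matched best by *Hsp90ab1*, *Grk2*, *Map1a*, *Yipf3*, and *Ncl*, at 0.98 to 0.99.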

How the data were processed

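Per the labels and the study's methods, the authors aligned reads to GRCm38 (mm10) with HISAT2 and made gene counts with StringTie and the GENCODE M15 annotation. The deposited table holds whole-number counts for 52636 genes in 12 libraries, not normalized. Fewer values were 1 (22574) than 2 (32279), so a count need not be a single fragment. Symbols and exon lengths came from GENCODE M21 of the same build (52403 genes matched). Low counts were removed with filterByExpr over the 4 groups, TMM factors were applied, and edgeR 4.0.16 (R 4.3.3) quasi-likelihood tests were run on all 22320 genes with Benjamini-Hochberg adjustment. The genotype comparison over 12 libraries used segment and genotype as terms, and the other contrasts used 4 group means. Alternatives used DESeq2 1.42.0 and limma 3.58.1. CPM is TMM-scaled. Fits with the mitochondrial share as a term, without 1 or 3 libraries that stood apart, or with the reads of *Gm48529* or *Gm11946* added were chosen after seeing the data. Code was tested on simulated data. Mitochondrial share is the percent of counts on genes of the mitochondrial chromosome.

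Going by the library titles, ascending/arch and descending libraries of one number were taken to come from one animal. Their deviations correlated at −0.24 to 0.66 over 9210 genes. Equal numbers across genotypes mark different animals. The p-values over 12 libraries treat the libraries of an animal as separate samples.

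The members and gene lists were chosen with earlier results of these data known. Named were all members and, of each other list, its called genes and up to 3 most abundant ones, plus the 5 genes closest to *Acta2* and to the members' mean within groups, and the targeted receptors. The values of 2 called genes of the light chain list are not reported here.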

Additional observations from a re-analysis of the deposited data

How the results depend on the processing

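The number of contractile genes called for genotype over 12 libraries, 1 as reported, was 0 with library size only, with no filter on low counts, with counts summed per animal, with no segment term, and without the descending library of GFPiSMC animal 2. It was 2 with the animal as a random effect in limma-voom, where 952 of 22320 genes passed. With the mitochondrial share as a term it was 4, alone, with that random effect, or with summed counts. In those fits 2307 of 22320, 2651 of 22320, and 1460 of 24275 genes passed. It ranged from 0 to 2 over the fits that each left out 1 animal, where 622 of 23452 to 1066 of 23439 genes passed. With the mitochondrial share as a term the counts rose from 0 to 2 within ascending/arch, to 1 within descending, and to 2 between segments in GFPiSMC SMCs. Over all genes 4.72%, 4.78%, and 1.16% passed there. Library size only moved the median log2 fold change over all genes from 0.04 to 0.16, and *Acta2*, *Tagln*, and *Cald1* were then at −0.11, −0.20, and −0.21. The replicate number as a block left *Cald1* called (adjusted p = 0.0287) with a count of 1, and the animal as a block changed no call between segments. Signs turned for genotype in *Smtn* with 3 libraries left out (−0.24) and with summed counts and the mitochondrial share (−0.0014), and in *Actg2* within ascending/arch with library size only (0.021) and with 3 libraries left out (0.020), where −0.08 was the reported value. *Acta2* between segments of GFPiSMC SMCs was −0.016 with library size only and −0.0013 with *Actg2* counts added. Leaving out animals in turn gave −0.0013 to 0.30 for *Actg2*, −0.40 to 0.51 for *Smtn*, −0.24 to 0.66 for *Lmod1*, and −0.12 to 0.25 for *Tpm1* over 12 libraries. It gave −0.23 to 0.026 for *Actg2* within ascending/arch, −0.13 to 0.21 for *Myh11* and −0.10 to 0.35 for *Tpm2* within descending, and −0.020 to 0.051 for *Acta2* between GFPiSMC segments. The cause of these shifts was not tested. With 3 animals a group, a small change in the variable genes was not detectable.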
